A study of Sus scrofa with 8 samples.

Results

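Chemokines and chemokine receptors were examined in heart RNA of Tibetan and Yorkshire pigs raised at highland or at lowland. The members were the rows of the deposited expression table whose gene name is that of a CC, CXC, CX3C or XC chemokine or of a receptor for one (IL8 and DARC under those names), which gave 52 genes with 50 symbols of the 18975 genes listed. CCR2 and CXCL2 each stand in 2 rows, and no row was named CMKLR1 or ACKR. The row that the table of gene names gives as the chemokine AMCF-II has no name in the deposited table and was not counted. Of the 52 members, 18 are inflammatory ligands, 11 homeostatic or constitutive ligands, 18 typical receptors and 4 atypical or related receptors, and CCL1 was put in none of these classes.

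The 4 groups were Tibetan pigs at highland (TH), Tibetan pigs at lowland (TL), Yorkshire pigs at highland (YH) and Yorkshire pigs at lowland (YL), with 2 libraries in each (TH1, TH2 and so on, given below in this order). All were male and 6 months old, and the tissue was heart that had been frozen in liquid nitrogen. The RNA of 4 pigs had been pooled for every library, so replicate error here is that between pools, and the spread between animals cannot be seen. The labels name no allele and no treatment other than the place where the pigs were raised. The descriptions of YL1 and YL2 point to the table of TL, but title, breed and column name all give YL, and the libraries were used as YL.

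The values are FPKM, the fragments of a gene divided by its transcript length in kilobases and by the mapped fragments in units of 1000000, a scale per length on which the levels of different genes can be set side by side. Between 15686980 (TH2) and 26722147 (TH1) reads per library lay on genes. Cardiomyocyte genes were present in every library, with a summed level between 15783 FPKM (YL2) and 43146 FPKM (TH1). YL2 stood apart: genes of kidney epithelium (15 genes) summed to 5080.0 FPKM in YL2 and to between 2.50 and 19.4 FPKM in the other libraries, and MYH6, the alpha myosin heavy chain, was at 2.60 FPKM in YL2 against 18.4 FPKM or more elsewhere. MYH6 was also low in TH, at 20.6 and 18.4 FPKM, against 75.1 to 246 FPKM in the TL and YH libraries and YL1. The cause was not tested. TH1 differed in another way, with VWF, a protein of endothelial cells, at 1.07 FPKM in TH1 and 22.8 FPKM in TH2. Where leaving out 1 library moved a member's log2 fold change given below by over 1.5 times, the value without it stands beside it. Ratios of group means were not followed in this way.

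Chemokines are small secreted proteins that bind G protein-coupled receptors on leukocytes and other cells and direct their migration along a gradient. Inflammatory chemokines are induced by cytokines and injury and draw monocytes, neutrophils and T cells into tissue, while homeostatic ones are made without such a stimulus and place lymphocytes and stem cells in their niches. Atypical receptors bind chemokines without the usual G protein signal and remove or carry them. In the heart, CCL2 is known for recruiting monocytes, CXCL12 for acting on vessels and progenitor cells, and CXCL9 and CXCL10 for drawing T cells in inflammation.

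Groups were compared with limma (a linear model with moderated variances) on log2(FPKM + 1), in which a fold change of a low gene is understated. A gene entered the test if 2 or more libraries reached 1 FPKM, which held for 25 of the 52 members and 11913 genes in all. Some of these members (CXCR3 and XCR1 through YH, CCRL1 through YL, CCL8 through YH and YL) passed the filter only through groups in which they were high. CCR10 would have failed it without TL and CXCL14 without YH, the groups in which each was highest. Counts over the tested members are thus descriptions and not support. A call needed an adjusted p (Benjamini-Hochberg over all genes tested) under 0.01 together with a fold change whose log2 exceeded 1 in either direction. No member was called in any comparison: 0 of 25 in TH to YH (0.0336% of all genes tested were called), in TL to YL (0.00839%), in TH to TL (0.0504%), in YH to YL (0%) and in the interaction, the altitude difference of the Tibetan pigs less that of the Yorkshire pigs (0.0336%). With 2 libraries against 2, an exact two-sided permutation test of a single gene cannot go below p = 0.333, and none was run. The fold changes below thus did not pass the adjusted threshold, save under the other settings named beside CXCL10 and CXCL16. The numbers of members at an unadjusted p under 0.05 are given with the comparisons.

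The members spanned from 0 to 366 FPKM. The mean over the 8 libraries was at least 10 FPKM for 6 members (CXCL10, CCL2, CCL5, CXCL12, CCL21 and CXCR7), between 1 and 10 FPKM for 15 and under 1 FPKM for 31, and 34 members were above 0 in every library. The leading chemokine differed between libraries. CCL2 held 54.1% of the summed FPKM of the members in TH1 and 38.9% in TH2, CXCL10 held 41.8% in YH1 and 71.1% in YL1, CCL21 and CXCL12 led in TL1 and TL2 respectively, CCL2 led in YH2 with 19.4%, and CCL16 led in YL2 with 18.4%.

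**Figure D1:**
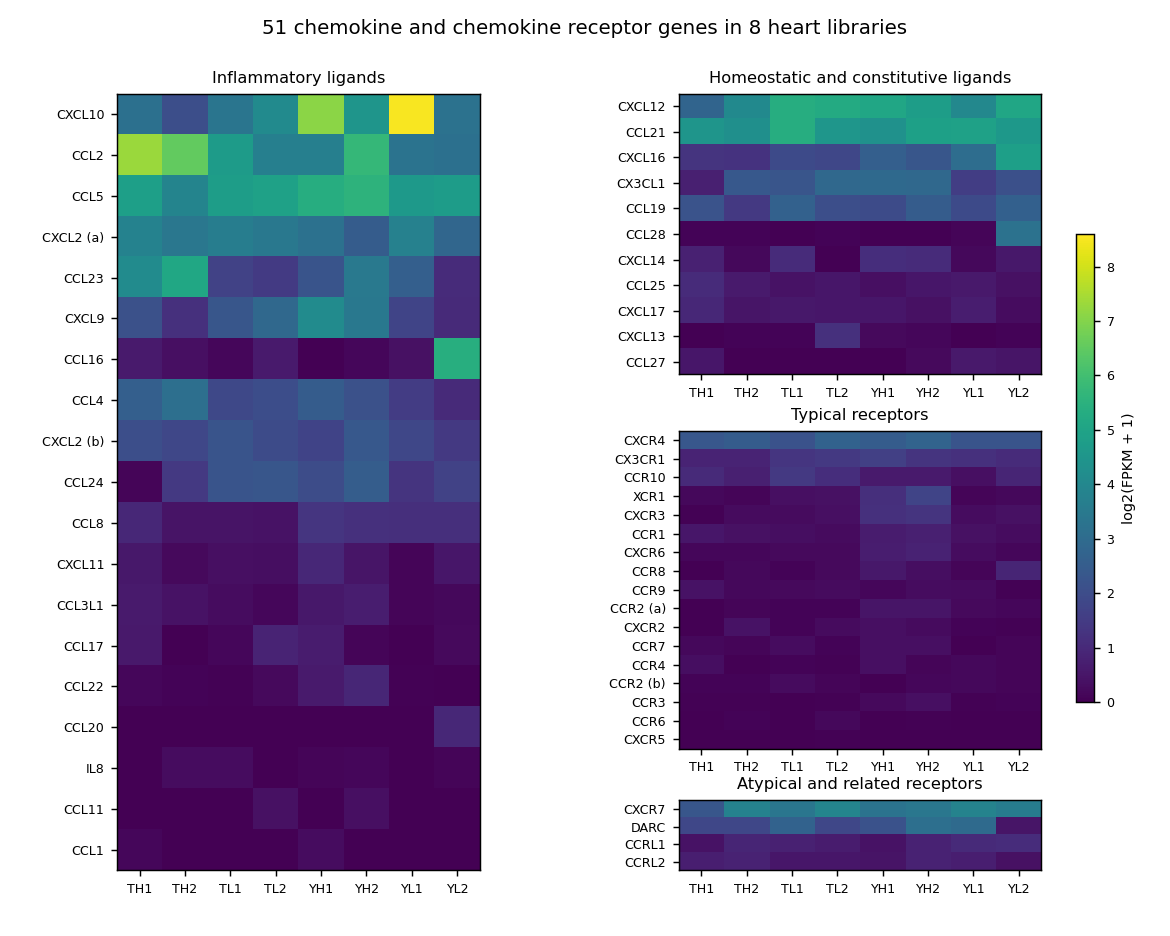
Levels of 51 of the 52 members in the 8 libraries, as a colour scale of log2(FPKM + 1), with 1 row a gene and 1 column a library, grouped by role (CCL1, without a class, is the last row of the first panel). CXCL2 (a) and (b) are the rows on chromosomes 8 and 5, and CCR2 (a) and (b) those that start at 32532564 and 32348401 on chromosome 13. CCL2 is brightest in TH1 and TH2, CXCL10 in YH1 and YL1, and CCL16 and CCL28 in YL2 alone.

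Among the inflammatory ligands, the ligands of CXCR3 were highest in Yorkshire hearts, but not in the same libraries. CXCL9 (ENSSSCG00000023489, chromosome 8, 75801203 to 75806186), an interferon-induced attractant of activated T cells, was at 3.39 and 1.28 FPKM in the TH libraries, 3.96 and 6.51 in the TL libraries, 16.6 and 9.92 in the YH libraries and 2.38 and 1.03 in the YL libraries. Both YH libraries lay above all the others, and in lowland the order turned, with both TL libraries above both YL libraries. The mean was 5.67-fold higher in YH than in TH (log2 fold change of TH to YH -2.13, SE 0.44, limma adjusted p = 0.118) and 7.79-fold higher in YH than in YL (2.41, SE 0.44, limma adjusted p = 0.582). TL to YL gave 1.22 (SE 0.44, limma adjusted p = 0.478). CXCL9 had the largest interaction in size of the tested members with an unadjusted p under 0.05, at -3.35 (SE 0.63, limma adjusted p = 0.248), since the altitude difference was in opposite directions in the breeds.

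CXCL10 (ENSSSCG00000008977), the second interferon-induced CXCR3 ligand, was at 8.01 and 3.17 FPKM in the TH libraries, 9.19 and 16.3 in the TL libraries, 138 and 21.5 in the YH libraries and 366 and 8.42 in the YL libraries. The libraries of YL differed more from each other than any of the group means did, and the 4301 reads of YL1 stood against 185 in YL2. Both TH libraries were below the 6 others. TH to YH gave a log2 fold change of -3.19 with an SE of 1.65 (limma adjusted p = 0.388), and TH to TL gave -1.12 (SE 1.65, limma adjusted p = 0.846). The former ran from -1.88 (without YH1) to -4.50 (without YH2), and the latter was -0.56 without TH2 and -0.73 without TL2. The fold change of TH to YH was called when each library was scaled to the same FPKM sum (-3.52, limma adjusted p = 5.23e-04, over a range of 5.23e-04 to 0.806 across the settings tried). The table lists CXCL10, CXCL11 and the gene ART3 at the same stretch of chromosome 8 (75809804 to 75991009), so that reads may have been split among them. CXCL11, the third ligand of CXCR3, stayed under 1 FPKM, with its highest value in YH1 (0.948) and its lowest in YL1 (0.0912), where CXCL10 peaked.

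CCL5 (ENSSSCG00000017705, chromosome 12, 41217456 to 41228604), which is released by T cells and platelets and draws T cells and monocytes, was the most even of the abundant inflammatory ligands. It lay at 26.6 FPKM in TL1, 29.3 in TL2, 24.4 in YL1 and 26.1 in YL2, and its extremes were in the highland groups, TH2 with 13.6 and YH2 with 46.4. Both YH libraries were above all the others, and the mean was 2.07-fold higher in YH than in TH (-1.10 for TH to YH, SE 0.33, limma adjusted p = 0.204). The interaction was -1.23 (SE 0.47, limma adjusted p = 0.422). Both rest in part on TH2, without which they were -0.60 and -0.73.

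**Figure D2:**
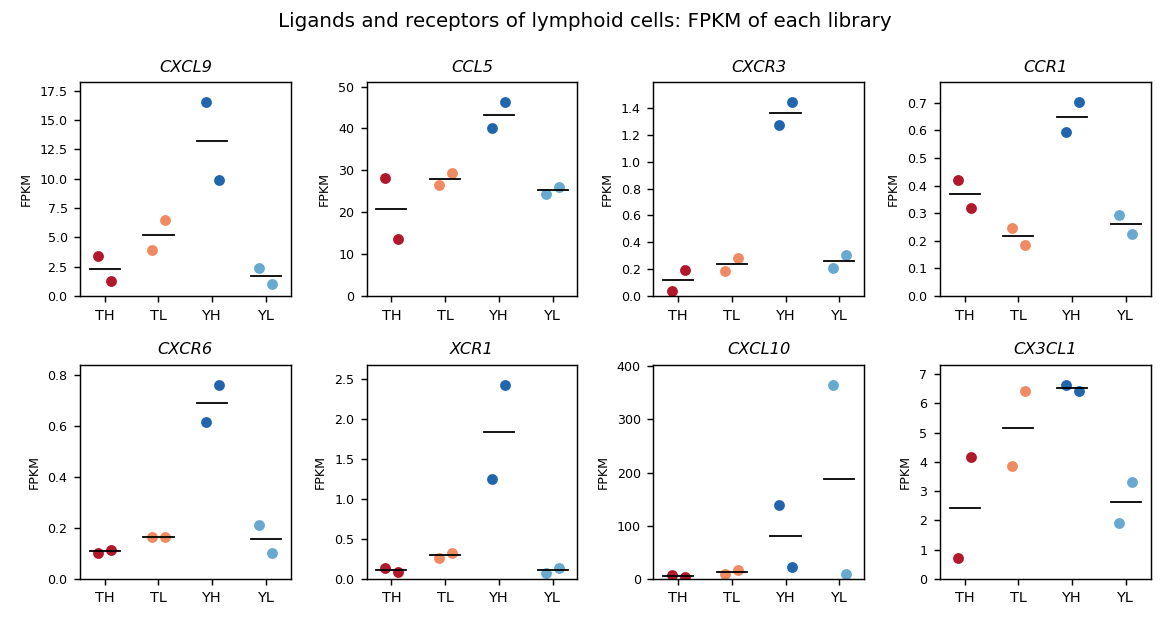
FPKM of 8 ligands and receptors in each library, by group (TH, TL, YH, YL), with 1 point a library and a line at the group mean. For CXCL9, CCL5, CXCR3, CCR1, CXCR6, XCR1 and CX3CL1 both YH points lie above the other 6, whereas CXCL10 is high in YH1 and in YL1 alone.

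CCL2 and CCL23 were highest in TH. CCL2 (ENSSSCG00000017723, chromosome 12, 42514167 to 42516128), the main attractant of CCR2-bearing monocytes, was at 156 and 91.2 FPKM in the TH libraries, 25.4 and 12.3 in the TL libraries, 12.1 and 52.5 in the YH libraries and 8.63 and 8.02 in the YL libraries. Both TH libraries were above the 6 others and both YL libraries below them, while the YH libraries lay far apart. The mean was 6.56-fold higher in TH than in TL (log2 fold change 2.68, SE 0.67, limma adjusted p = 0.253) and 3.83-fold higher in TH than in YH (2.19, SE 0.67, limma adjusted p = 0.210). Without YH1 the fold change of TH to YH was 1.17, and without YH2 it was 3.20. YH to YL gave 1.50 (SE 0.67, limma adjusted p = 0.784), which was 0.49 without YH2 and 2.52 without YH1, and TL to YL gave 1.01 (SE 0.67, limma adjusted p = 0.717), which was 0.51 without TL1.

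CCL23 (ENSSSCG00000017702, chromosome 12, 41160876 to 41165234), an attractant of monocytes that acts through CCR1, was at 16.6 and 33.6 FPKM in the TH libraries, 2.24 and 1.79 in the TL libraries, 3.74 and 10.02 in the YH libraries and 5.03 and 1.09 in the YL libraries. The TH libraries were again the highest, with YH2 next. Among the 25 tested members CCL23 had the largest fold change in TH to TL, 12.5-fold between the means (3.04, SE 0.62, limma adjusted p = 0.197). Against YH it was 3.65-fold higher in TH (1.77, SE 0.62, limma adjusted p = 0.246), and 1.16 on the log2 scale without YH1.

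CCL4 (ENSSSCG00000017698), a ligand made by activated macrophages and lymphocytes, was at 5.15 and 7.77 FPKM in the TH libraries, 2.63 and 3.14 in the TL libraries, 4.67 and 3.41 in the YH libraries and 1.87 and 1.02 in the YL libraries. In both breeds the highland libraries were above the lowland ones. These values rest on 3 to 12 reads a library, so counting error is large. TH to TL gave 0.92 (SE 0.29, limma adjusted p = 0.314), YH to YL 1.05 (SE 0.29, limma adjusted p = 0.688) and TL to YL 0.69 (SE 0.29, limma adjusted p = 0.555), the last being 0.43 without YL2. CCL25, a thymic and gut ligand of CCR9, was the only other member with both TH libraries on top, at 1.06 FPKM in TH1 and 0.522 in TH2 against 0.287 to 0.496 elsewhere.

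With CCL2, CCL23, CCL4 and CCL25, 4 of the 52 members (7.69%) had both TH libraries above the 6 others, against 7.78% of all genes listed, and 4 (7.69%), among them CXCL10, CXCL16 and CX3CR1, had both below, against 6.42%. When each library was scaled to the same FPKM sum, which was 8559104 in TH1 and between 1563940 and 4017846 in the others, no member had both TH libraries on top, though the fold changes of CCL2 (1.93), CCL23 (1.92) and CCL4 (0.35) in TH to TL kept their direction, as did those of CCL2 (1.13) and CCL23 (0.76) in TH to YH. Markers of macrophages and monocytes (11 genes), cells that respond to CCL2 and CCL23, were lowest in summed level in TH1 (82.7 FPKM) and highest in YH2 (194 FPKM). Between TH and TL the sum followed the complement genes C1QC (6.17 FPKM in TH1, 20.4 in TH2, 47.9 in TL1 and 53.3 in TL2) and C1QA, whereas 6 of the 11 genes had both TH libraries above both TL libraries (19.9% of all genes listed) and 3 both below (20.6%), CD68 for example with 5.39 and 5.95 FPKM in TH against 2.89 and 2.60 in TL. In YH2 the sum did not follow them. There C1QC (46.4 FPKM) and C1QA (34.1 FPKM) were below both TL libraries, and TYROBP (36.1 FPKM) and FCER1G (31.5 FPKM) were at their highest. Red cell genes (5 genes) summed to 3100.0 FPKM in TH1, 1629 in TH2 and at most 1402 elsewhere, and the part of blood cells in these values was not tested.

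CCL24 (ENSSSCG00000029140, on the unplaced scaffold GL892833.1), the eotaxin that attracts eosinophils through CCR3, was at 0.0959 and 1.67 FPKM in the TH libraries, 3.68 and 3.88 in the TL libraries, 3.03 and 4.86 in the YH libraries and 1.46 and 2.26 in the YL libraries. TH1, with 1 read, stood below the rest, and each TH library was below each TL and YH library. TH to YH gave -1.51 (SE 0.43, limma adjusted p = 0.189) and TH to TL -1.48 (SE 0.43, limma adjusted p = 0.303). Without TH1 these were -0.86 and -0.84. The interaction was -2.26 (SE 0.61, limma adjusted p = 0.333).

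Of the other inflammatory ligands, CCL16 was high in YL2 alone. CXCL2, a neutrophil attractant, was listed on chromosome 8 (ENSSSCG00000008959) at 4.70 to 12.9 FPKM and on chromosome 5 (ENSSSCG00000000242) at 1.70 to 4.12 FPKM, and neither row had an unadjusted p under 0.05 in any comparison. The chromosome 8 row is listed at the same stretch as ENSSSCG00000008954, CCRL1 at that of ACAD11 and CXCR5 at that of BCL9L. CXCL17 stands at a stretch with 7 genes listed, itself included. Reads may have been shared there too. CCL8, a monocyte attractant, lay between 1.22 and 1.51 FPKM in the 4 Yorkshire libraries and between 0.325 and 0.936 FPKM in the 4 Tibetan ones (TL to YL -0.72, SE 0.24, limma adjusted p = 0.415), on 4 to 23 reads a library. CCL22, a ligand of CCR4 made by dendritic cells and macrophages, was at 0.533 FPKM in YH1 and 0.895 in YH2 and at most 0.172 elsewhere. IL8, the neutrophil attractant CXCL8, did not pass 0.227 FPKM in any library, and CCL11, CCL17 and CCL3L1 stayed under 1 FPKM. Neutrophil genes were likewise low, at a summed level of 0.805 to 8.25 FPKM over 7 genes.

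CXCL12 and CCL21 were the most abundant homeostatic ligands, and CXCL12 was lowest in TH1. CXCL12 (ENSSSCG00000010414, chromosome 14, 99990229 to 100017315), which is made by stromal and endothelial cells and holds CXCR4-bearing progenitors, was at 5.83 and 16.0 FPKM in the TH libraries, 39.7 and 37.5 in the TL libraries, 32.9 and 26.9 in the YH libraries and 15.1 and 33.0 in the YL libraries. Both TL libraries were above all the others, and the TH libraries did not overlap with TL or YH. The mean was 3.53-fold higher in TL than in TH (-1.87 for TH to TL, SE 0.50, limma adjusted p = 0.268) and 2.73-fold higher in YH than in TH (-1.51 for TH to YH, SE 0.50, limma adjusted p = 0.234). Without TH1 these were -1.22 and -0.85. The interaction was -2.27 (SE 0.71, limma adjusted p = 0.364).

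Markers of stromal cells moved partly with it. Fibroblast genes (10 genes) summed to 202 and 716 FPKM in the TH libraries, 830 and 648 in the TL libraries, 333 and 405 in the YH libraries and 283 and 244 in the YL libraries, so that TH1 was lowest but TH2, low in CXCL12, was next to highest. Endothelial genes (7 genes) summed to 122 FPKM in TH1, 171 in TH2 and between 97.6 and 166 elsewhere, a sum led by PECAM1, which was highest in TH1 (96.8 FPKM). The other 6 endothelial genes were all lowest in TH1, as CXCL12, CX3CL1 and CXCR7 were, and 5 of the 7 had both TH libraries below both YH libraries (22.9% of all genes listed), with a median log2 fold change of -0.79 in TH to YH against -0.03 for all genes tested. The part of endothelial and stromal cells in the values of these chemokine genes was not tested. In RNA of whole tissue, fewer cells of a type and less RNA per cell cannot be told apart.

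CX3CL1 (ENSSSCG00000024759, chromosome 6, 17304112 to 17313899), a membrane-bound ligand of endothelium that captures CX3CR1-bearing cells, was at 0.706 and 4.16 FPKM in the TH libraries, 3.87 and 6.42 in the TL libraries, 6.65 and 6.43 in the YH libraries and 1.92 and 3.33 in the YL libraries. YH1 and YH2 were the highest, though YH2 exceeded TL2 by very little, and TH1 was the lowest. TH to YH gave -1.35 (SE 0.52, limma adjusted p = 0.281), which was -0.55 without TH1 and -2.14 without TH2, and YH to YL gave 1.08 (SE 0.52, limma adjusted p = 0.784). The interaction was -2.10 (SE 0.73, limma adjusted p = 0.395) and -1.30 without TH1.

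CXCL16 (ENSSSCG00000017920, chromosome 12, 54264905 to 54269592), the membrane-bound ligand of CXCR6 that also takes up oxidised lipoprotein, was at 1.46 and 1.38 FPKM in the TH libraries, 2.83 and 2.59 in the TL libraries, 5.03 and 3.92 in the YH libraries and 7.35 and 27.9 in the YL libraries. The 4 Yorkshire libraries were above the 4 Tibetan ones, the TH libraries were lowest and YL2 was by far the highest. TL to YL gave -2.07 (SE 0.52, limma adjusted p = 0.301) and -1.17 without YL2. TH to YH, in which YL2 has no part, gave -1.17 (SE 0.52, limma adjusted p = 0.334), with a 3.15-fold difference of the means. YH to YL gave -1.51 (SE 0.52, limma adjusted p = 0.775) and -0.62 without YL2. Without YL1, which leaves YL2 alone for YL with a spread taken from the other groups, CXCL16 was called, as a statement on YL2 only, in TL to YL (-2.96, limma adjusted p = 0.00149, range over the settings 0.00149 to 1) and in YH to YL (-2.41, limma adjusted p = 0.00304, range 0.00304 to 1).

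Other members were high in YL2 alone. CCL16 (ENSSSCG00000017704), a chemokine known from liver, was at 41.3 FPKM with 496 reads in YL2 and at no more than 0.527 FPKM, 5 reads or fewer, in each of the others. CCL28 (ENSSSCG00000016871), a ligand of CCR10 made by mucosal epithelium, was at 8.52 FPKM with 205 reads in YL2 and had 0 or 1 read in each of the others. CCL20, the ligand of CCR6, had 15 reads (0.930 FPKM) in YL2 and 0 reads in the other 7, which allows up to 3 reads in each. With CXCL16, CCL16 and CCL28, 3 members (5.77%) were at 1 FPKM or more in YL2 and over 2 times every other library, against 8.8% of all genes listed. YL2 is the library with the kidney genes, among them UMOD at 947 FPKM and MIOX at 661 FPKM, and their part in these values was not tested.

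**Figure D3:**
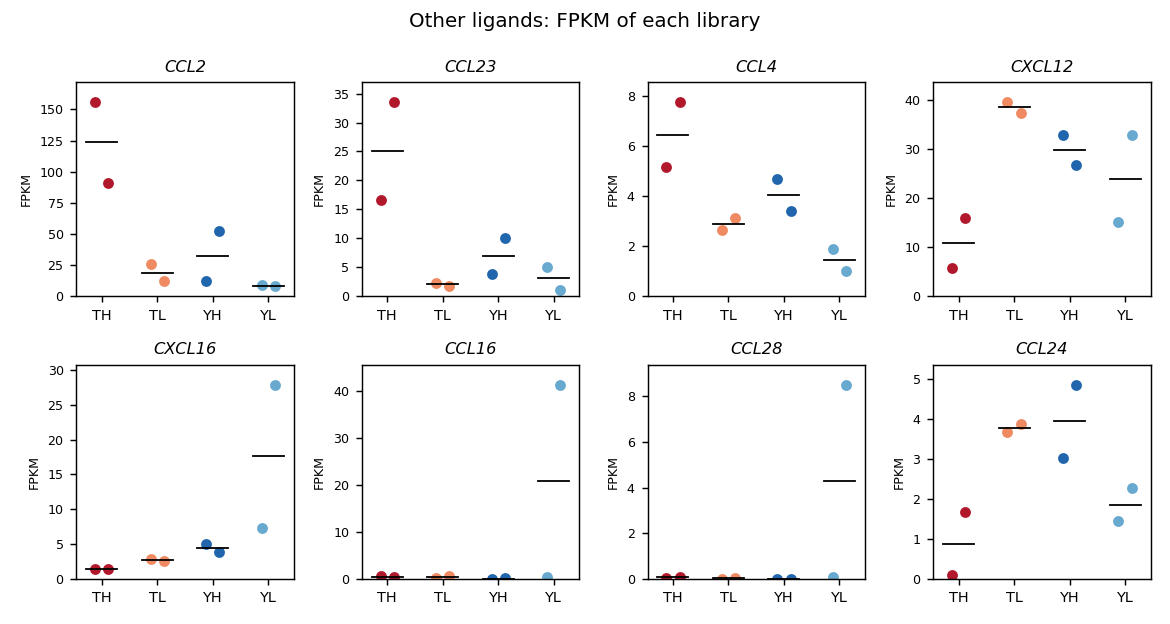
FPKM of 8 further ligands in each library, by group, with 1 point a library and a line at the group mean. CCL2 and CCL23 are highest in both TH libraries, CXCL12 is highest in both TL libraries, while the YL means of CXCL16, CCL16 and CCL28 are set by YL2.

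CCL21 and CCL19 are the lymphatic and lymphoid ligands of CCR7. CCL21 (ENSSSCG00000010965) lay between 18.4 FPKM (TH2) and 40.2 FPKM (TL1) and CCL19 (ENSSSCG00000010966) between 1.68 FPKM (TH2) and 5.42 FPKM (TL1), and for neither was an unadjusted p under 0.05 in any comparison, though both TH libraries of CCL21 (21.5 and 18.4 FPKM) lay below both TL libraries (40.2 and 22.1). CXCL14, a constitutive ligand of epithelia and stroma, was at 1.19 FPKM in YH1 and 1.11 in YH2, yet at 1.06 in TL1 and 0.0215 in TL2, so that the TL libraries spanned nearly the whole range. CXCL13, which draws B cells into follicles, was at 1.26 FPKM (29 reads) in TL2 and at 0.152 or less elsewhere. The B cell genes (5 genes) also had their highest sum in TL2, 2.45 FPKM, against 0.909 to 1.61 FPKM in the others. CXCL17, CCL25 and CCL27, ligands of mucosa, gut and skin, stayed at or under 1.06 FPKM.

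Several receptors of lymphoid and dendritic cells peaked in YH. CXCR3 (ENSSSCG00000012402, chromosome X, 65033699 to 65037068), the receptor for CXCL9, CXCL10 and CXCL11 on activated T cells, was at 0.0399 and 0.196 FPKM in the TH libraries, 0.188 and 0.286 in the TL libraries, 1.27 and 1.44 in the YH libraries and 0.211 and 0.307 in the YL libraries. The YH libraries held 40 and 52 reads and the others between 1 and 13. TH to YH gave -1.08 (SE 0.20, limma adjusted p = 0.0974), YH to YL 0.91 (SE 0.20, limma adjusted p = 0.624) and the interaction -1.05 (SE 0.29, limma adjusted p = 0.333). No such difference between the breeds was seen in lowland, where the values of TL and YL overlapped.

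XCR1 (ENSSSCG00000026707, chromosome 13, 32247995 to 32256018), a receptor of cross-presenting dendritic cells, was at 0.139 and 0.0875 FPKM in the TH libraries, 0.265 and 0.320 in the TL libraries, 1.25 and 2.43 in the YH libraries and 0.0752 and 0.137 in the YL libraries. With 85 and 166 reads, the YH libraries were far above the others, which held 4 to 25. TH to YH gave -1.32 (SE 0.25, limma adjusted p = 0.0983), YH to YL 1.33 (SE 0.25, limma adjusted p = 0.582) and the interaction -1.54 (SE 0.36, limma adjusted p = 0.294).

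CXCR6, the receptor for CXCL16 on memory T cells and natural killer T cells, did not pass the filter, but had the same order, with 0.616 FPKM in YH1, 0.764 in YH2 and 0.103 to 0.213 in the other 6. The table lists it at the same stretch as FYCO1, so that reads may have been shared. CCR1, CCR3, CCR7 and the CCR2 row that starts at 32532564 on chromosome 13 also had both YH libraries on top, CCR1 with 0.593 and 0.703 FPKM against at most 0.419, and this CCR2 row with 0.389 and 0.398 FPKM against at most 0.159. For CCR3 this rests on 6 and 10 reads against at most 3 elsewhere, and for CCR7 on 14 and 18 reads against at most 11. The row that starts at 32532564 is named CCR2 in the deposited table and CCR3 in the table of gene names used here, and the other CCR2 row is listed at the same stretch as CCR3, so the receptors of this stretch cannot be assigned with certainty.

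In all, 14 of the 52 members (26.9%) had both YH libraries above the 6 others, against 5.81% of all genes listed. Among them were the ligands CCL5, CXCL9, CX3CL1, CCL8, CXCL14 and CCL22 and the receptors XCR1, CXCR3, CCR1, CXCR6, CCR2, CCR7 and CCR3. Markers of T and natural killer cells had the same order: their summed level (18 genes) was 10.9 and 10.05 FPKM in the TH libraries, 15.6 and 21.2 in the TL libraries, 46.5 and 51.7 in the YH libraries and 20.8 and 21.5 in the YL libraries, and 14 of the 18 had both YH libraries on top, against the same 5.81%. CD3E, a chain of the T cell receptor complex, was at 6.60 FPKM in YH1 and 9.08 in YH2 against 0.858 to 2.84 in the others, and CD8A, the co-receptor of cytotoxic T cells, at 3.15 and 3.17 FPKM against 0.457 to 1.33. None of the 12 marker genes tested was called in TH to YH (limma), though all 12 were lower in TH at an unadjusted p under 0.05 (8.47% of all genes tested), some of them (CD3G and CD3D among others) having passed the filter only through YH. Both YH libraries were also on top for 4 of the 7 endothelial genes (TEK, KDR, FLT1 and VWF) and 3 of the 11 macrophage and monocyte genes (CSF1R, FCER1G and TYROBP). The part of the number of T and natural killer, endothelial and macrophage cells in the values of the chemokine genes was not tested.

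**Figure D4:**
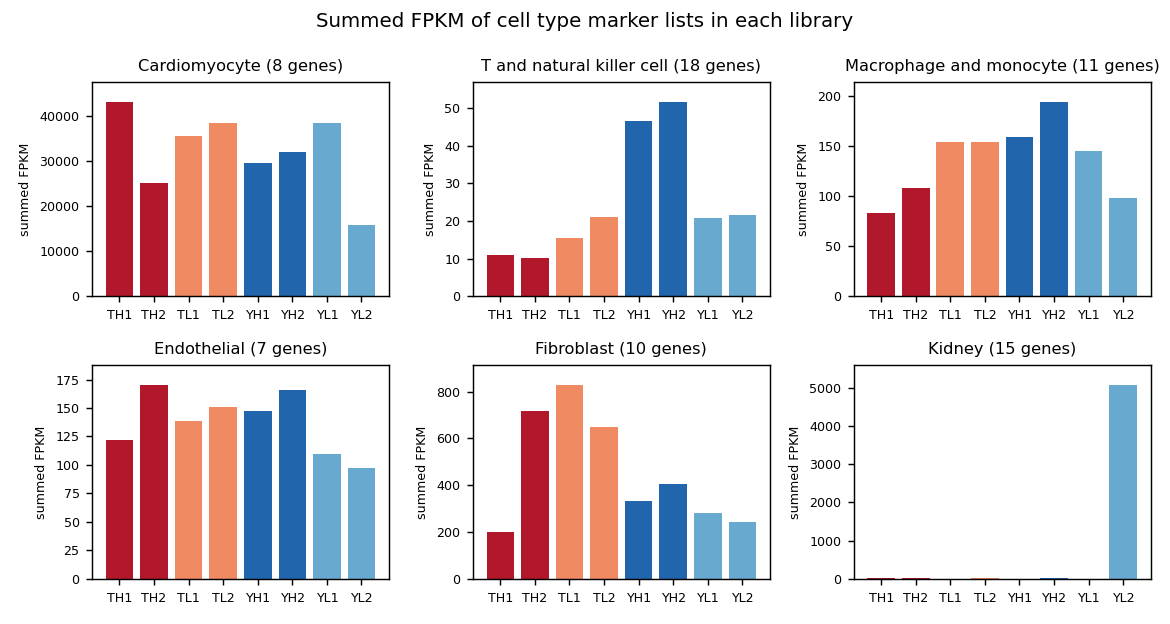
Summed FPKM of 6 lists of marker genes in each library, with 1 bar a library and the number of genes found in each title. The T and natural killer cell list reaches 46.5 and 51.7 in YH1 and YH2 and at most 21.5 elsewhere, and the kidney list reaches 5080.0 in YL2.

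Receptors without this order were CXCR4, CX3CR1 and CCR10. CXCR4 (ENSSSCG00000015688, chromosome 15, 18124940 to 18128996), the receptor for CXCL12, was the most abundant typical receptor, at 4.01 and 4.63 FPKM in the TH libraries, 3.54 and 5.57 in the TL libraries, 4.62 and 5.69 in the YH libraries and 3.71 and 3.67 in the YL libraries. None of its comparisons had an unadjusted p under 0.05. CX3CR1 (ENSSSCG00000024024), found on monocytes and resident macrophages, was at 0.811 and 0.801 FPKM in the TH libraries, 1.53 and 1.70 in the TL libraries, 2.13 and 1.47 in the YH libraries and 1.26 and 1.08 in the YL libraries. Both TH libraries were below the other 6 (TH to TL -0.53, SE 0.21, limma adjusted p = 0.409; interaction -0.89, SE 0.30, limma adjusted p = 0.376). CCR10, the receptor for CCL27 and CCL28, lay between 0.262 FPKM (YL1) and 1.68 FPKM (TL1), with both TL libraries on top (TL to YL 0.65, SE 0.27, limma adjusted p = 0.541, and 0.37 without YL1).

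Of the 4 atypical receptors 3 were tested, all but CCRL2, and none of these had an unadjusted p under 0.05 between groups. CXCR7 (ENSSSCG00000016322, chromosome 15, 150857311 to 150858400), also named ACKR3, which takes up CXCL12, was the most abundant receptor of all, at 3.93 and 13.1 FPKM in the TH libraries, 9.34 and 14.0 in the TL libraries, 8.63 and 9.65 in the YH libraries and 13.4 and 11.2 in the YL libraries. TH1 was the lowest, as it was for CXCL12, and both YH libraries lay below both YL libraries. DARC (ENSSSCG00000006416), also named ACKR1, a chemokine-binding protein of venules and red cells, was at 2.59 and 2.54 FPKM in the TH libraries, 5.47 and 2.52 in the TL libraries, 3.46 and 7.84 in the YH libraries and 6.77 and 0.400 in the YL libraries, and so differed most within YL. CCRL1, also named ACKR4, which takes up CCL19 and CCL21, lay between 0.328 and 1.12 FPKM with both YL libraries on top, and CCRL2 between 0.315 and 0.778 FPKM.

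The other typical receptors were near the limit of detection. CCR9 and CCR4, receptors of gut-homing and of skin-homing T cells, did not exceed 0.326 FPKM, and the second CCR2 row did not exceed 0.184. CXCR2, the neutrophil receptor for IL8, reached 0.328 FPKM in TH2 and had 0 to 5 reads a library. CCR8, of regulatory T cells, reached 0.836 FPKM with 20 reads in YL2 and 0.470 FPKM with 8 reads in YH1. CCR6 held at most 3 reads in any library, CXCR5, the B cell receptor for CXCL13, 1 read in all, and CCL1 at most 2 reads.

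Set side by side, ligands and receptors of a pair did not peak in the same group throughout. CXCL9 and CXCR3 were both highest in YH. CCL2 peaked in TH, while the 2 rows named for its receptor CCR2 stayed at or under 0.398 FPKM, one of uncertain name with its highest values in YH and the other with its highest in TL1 (0.184) and 0 in YH1, and CXCL16 peaked in YL2 while CXCR6 peaked in YH. CX3CL1 was highest in YH, where CX3CR1 had its maximum in YH1 (2.13 FPKM) but not in YH2 (1.47). CXCL12 varied from 5.83 to 39.7 FPKM over the libraries and CXCR4 only from 3.54 to 5.69. CCL21 was 18.4 FPKM or more in every library with CCR7 at 0.272 FPKM or less.

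Many members lie together in the genome (build Sscrofa10.2): 34 of the 52 stood in 7 stretches in which neighbours are no more than 2 Mb apart. The stretch of chromosome 13 from 32129988 to 32568453 held 9 receptors, CXCR6, XCR1 and CCR1 among them, and only 1 other gene, FYCO1. Of the 9 receptors, 6 had both YH libraries above the 6 others (5.81% of all genes listed), and so did FYCO1, which shares its listed position with CXCR6. The stretch of chromosome 12 from 41048661 to 42516128 held 9 CC ligands, and here neighbours differed. CCL2, CCL23 and CCL4 had both TH libraries on top, CCL5 and CCL8 both YH libraries, and CCL16 was high in YL2 alone. Of the 15 other genes listed in that stretch, none had both TH libraries on top and 2 had both YH libraries. On chromosome 6, between 17288016 and 17345459, CCL22 and CX3CL1 had both YH libraries on top and their neighbour CCL17 did not.

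The counts of members lay furthest from those of all genes in the comparisons with YH, in which more members were lower in TH than in YH and higher in YH than in YL. In TH to YH, 22 of the 52 members (42.3%) had both TH libraries below both YH libraries, against 22.9% of all genes listed, and 8 (15.4%) above, against 21.5%. Of the 25 tested, 10 were lower at an unadjusted p under 0.05 (8.47% of all genes tested) and 2, CCL2 and CCL23, higher (7.71%). Besides those given above, CX3CR1 and CCL8 were among the lower ones, with log2 fold changes of -0.62 and -0.57 (-0.31 for CCL8 without TH2). The median log2 fold change of the tested members was -0.62, against -0.03 for all genes tested. It was -0.18 over all 52 members with no filter, -1.05 with a pseudocount of 0.1 and -0.81 without TH1.

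In YH to YL, 22 of the 52 (42.3%) had both YH libraries above both YL libraries, against 18.3% of all genes listed, and 6 (11.5%) below, against 13.9%. Of the 25 tested, 5 were higher in YH at an unadjusted p under 0.05 (4.39% of all genes tested), among them CXCL9, XCR1, CXCR3 and CCL4, and CXCL16 was lower (1.58%). The median of the tested members was 0.40, against 0.03 for all genes tested, and it was 0.71 without YH1. This comparison and TH to YH share the YH libraries, so they do not count as separate evidence.

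In TH to TL, 12 of the 52 (23.1%) had both TH libraries below both TL libraries, against 20.6% of all genes listed, and 9 (17.3%) above, against 19.9%, which is near the background of all genes listed. Of the 25 tested, 3 (CCL2, CCL23 and CCL4) were higher in TH at an unadjusted p under 0.05 (5.81% of all genes tested) and 4, among them CXCL12, CCL24 and CX3CR1, lower (5.53%). In TL to YL, 11 (21.2%) were above, against 19.9%, and 8 (15.4%) below, against 16.6%, also near that background, with CXCL9, CCR10 and CCL4 higher in TL (5.9%) and CXCL16 and CCL8 lower (3.04%). Over the tested members alone the shares stood further off, with 10 of 25 (40%) below in TH to TL against 24.5% of genes tested and 11 of 25 (44%) above in TL to YL against 23.8%. The medians were -0.42 in TH to TL and 0.22 in TL to YL, against -0.02 and 0.02. The former was -0.044 over all 52 members with no filter, -0.15 with a filter of at least 10 reads, -0.25 without TH2 and -0.24 without TL1. The latter was 0.076 over all 52 members with no filter. It turned to -0.05 when each library was scaled to the same FPKM sum, which moved all genes by -0.24 in that comparison and by -0.47 in TH to YH.

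The same scaling moved other log2 fold changes given above by over 1.5 times without turning them. In TH to YH, CCL5 went to -1.88, XCR1 to -0.78 and CXCR3 to -0.59. In TL to YL, CXCL9 went to 0.70, CCL2 to 0.59, CCL4 to 0.30, CCR10 to 0.17 and CCL8 to -0.46. In TH to TL, CCL24 went to -0.79 and CX3CR1 to -0.35, and in YH to YL, XCR1 to 0.74 and CXCR3 to 0.47. The interaction went to -1.31 for CCL24, -0.84 for XCR1, -0.55 for CX3CR1 and -0.53 for CXCR3.

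In the interaction, 9 of the 25 tested members had an unadjusted p under 0.05 and a negative value (7.16% of all genes tested) and none a positive one (3.78%). They included CXCL9, CXCL12, CCL24, CX3CL1, XCR1, CCL5, CXCR3 and CX3CR1. A negative value means that highland exceeded lowland by less in Tibetan than in Yorkshire pigs, or fell below it. The smallest limma adjusted p among them was 0.248, of CXCL9.

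**Figure D5:**
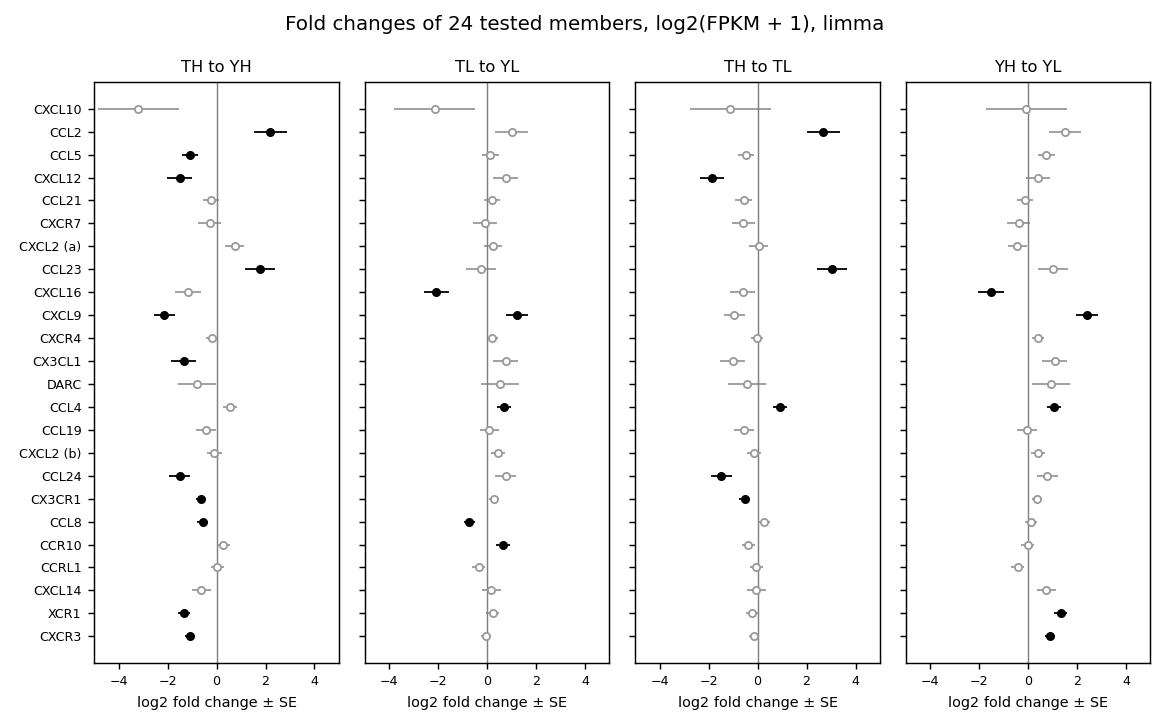
Log2 fold changes, on log2(FPKM + 1), of 24 of the 25 tested members in the 4 comparisons, with bars of 1 SE from limma, filled where the unadjusted p was under 0.05. The receptors XCR1 and CXCR3 lie left of 0 in TH to YH and right of 0 in YH to YL, while CCL2 and CCL23 lie right of 0 in both comparisons with TH.

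Genes of the chemokine pathway outside the family as defined here (signalling genes downstream of the receptors, with the platelet chemokines PF4 and PPBP, RARRES2, which encodes chemerin, and the protease DPP4) were found for 79 of the 90 symbols listed (85 genes, 74 tested), and none was called in any of the 4 comparisons (limma). At an unadjusted p under 0.05, 3 of the 74 were higher and 11 lower in TH to YH (7.71% and 8.47% of all genes tested), 4 and 2 in TL to YL (5.9% and 3.04%), 2 and 3 in TH to TL (5.81% and 5.53%), and 6 and 1 in YH to YL (4.39% and 1.58%), so that nothing is read from most of these counts. Both YH libraries were above the 6 others for 18 of the 85 genes, the 3 rows of DOCK2 among them, against 5.81% of all genes listed. DPP4, a protease of the cell surface that trims and inactivates chemokines such as CXCL12, had the smallest p of the list: it was at 11.3 and 9.01 FPKM in the TH libraries, 16.5 and 20.3 in the TL libraries, 41.9 and 48.9 in the YH libraries and 52.3 and 68.4 in the YL libraries. The Tibetan libraries were all below the Yorkshire ones at either altitude (TH to YH -2.06, SE 0.24, limma adjusted p = 0.0411; TL to YL -1.66, SE 0.24, limma adjusted p = 0.156). The first of these passes a threshold of 0.05 and not that of 0.01. The highest value of DPP4 was in YL2, the library with the kidney genes, and their part in it was not tested.

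RAC2, the Rac GTPase of blood cells that drives leukocyte migration, was at 5.47 FPKM in YH1 and 5.40 in YH2 and between 1.36 and 2.97 FPKM in the others, with both YH libraries on top (TH to YH -1.44, SE 0.23, limma adjusted p = 0.0761). DOCK2, which activates Rac in leukocytes, stands in 3 rows, of which the most abundant (ENSSSCG00000023671) was at 1.91 and 1.90 FPKM in YH and 0.378 to 1.15 elsewhere (-0.90, SE 0.22, limma adjusted p = 0.151). In TH to TL the kinases ROCK2 (1.39, SE 0.36, limma adjusted p = 0.263) and GSK3B (1.29, SE 0.35, limma adjusted p = 0.268) were higher in TH, without passing the threshold, and RASGRP2, an activator of Rap1, was lower (-0.96, SE 0.27, limma adjusted p = 0.274).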

How the data were processed

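RNA-seq of 8 heart libraries was used. Per the labels and methods, the authors aligned reads to Sscrofa10.2 with TopHat2 2.0.9 and Bowtie 0.12.5 and compared groups with DESeq 1.10.1. The deposited table gives FPKM per library, and a signal per library, reads scaled by 1 factor, which the authors name a count. Dividing that signal by its smallest step gave whole numbers (within 0.1) for 99.8% to 99.9% of low values, and reads given here were obtained so. Group means and ratios, the authors' own comparisons, and 4 group tables with the same values were not used.

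The fit used limma 3.58.1 (R 4.3.3) on log2(FPKM + 1) of 8 libraries, with a term for each group and trended variances (prior 2.83, residual 4 degrees of freedom). It was also run on simulated data. Their noise was drawn independently for each gene and library, without library-wide departures such as those of TH1 and YL2. The run thus does not speak to such departures. Members and gene lists were chosen with earlier results of these data known. Members were named with 8 values at a mean of 1 FPKM or a library at 5 FPKM, and with a fold change at an unadjusted p under 0.05 or, without overlap, a log2 fold over 1, at most 12 a comparison. A member is counted in all totals but not reported here by itself. Genome stretches and the single values given of low members were chosen after the data were seen. Alternatives were a pseudocount of 0.1, no filter, at least 10 reads in 2 libraries, median-ratio scaling, scaling to an FPKM sum of 1000000, no variance trend, a replicate block, an adjusted p under 0.05, a fit to the 4 libraries compared alone and each library left out. Figures were made with Python 3.11.15 and matplotlib 3.10.9.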

Additional observations from a re-analysis of the deposited data

How the results depend on the processing

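Fold changes of members in the comparisons where they met the rule for naming kept their direction under every alternative run. Others did not: CXCL10 in TL to YL went from -2.14 to 0.50 without YL1, and under scaling to the FPKM sum CCL4 in TH to YH went from 0.55 to -0.09 and CCL5 in TL to YL from 0.14 to -0.19. A member was called in 3 cases only, CXCL10 in TH to YH under scaling to the FPKM sum (1 member called) and CXCL16 in TL to YL and in YH to YL without YL1, where YL2 stands alone and is assumed to vary like the other groups. Leaving out each library in turn gave 0 to 1 called members in TL to YL and in YH to YL and 0 in the others. Members at an unadjusted p under 0.05 then numbered 6 (without YH1) to 15 in TH to YH, 1 (without TL2) to 7 in TL to YL, 5 to 8 in TH to TL and 5 to 9 in YH to YL. The median fold change ranged from -0.81 to -0.59 in TH to YH, from 0.18 to 0.34 in TL to YL, from -0.49 to -0.24 in TH to TL and from 0.30 to 0.71 in YH to YL. Members with both TH libraries on top numbered 4 to 7 and with both below all others 4 to 14 (without TH2, which leaves TH1 alone), and those with both YH libraries on top 14 to 20.

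With a pseudocount of 0.1 the median was -1.05 in TH to YH and -0.66 in TH to TL, with no filter -0.18 and -0.044, and with at least 10 reads -0.15 in TH to TL. Members at an unadjusted p under 0.05 in YH to YL numbered 6 of 25, 13 of 52 with no filter and 10 of 32 with at least 10 reads. In TL to YL they numbered 3 under median-ratio scaling and 2 under scaling to the FPKM sum, which also gave 3 in TH to TL, a median of -0.048 in TL to YL, 0 members with TH on top and 8 with TH lowest. A replicate block gave 3 such members in TL to YL in place of 5. The replicate numbers share only a name, since same-numbered libraries of different groups correlated at -0.08 to 0.12. The causes of these shifts were not tested. The count tests planned on recovered reads were not run, since stray values under 1 step kept the signal from being taken as reads. The interaction cannot be had from only the 4 libraries compared.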
